A study of Homo sapiens with 22 samples.

Results

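A set of 2858 cohesin sites at CTCF was called in DMSO-treated cells of clone A2, was missing from the peak list made after 4 h of NIPBL degradation, and was listed again at 24 h. Each member is a RAD21 peak of the clone A2 DMSO list that overlapped, by 1 bp or more, a RAD21 peak of the clone D7 DMSO list and a CTCF peak of wild-type cells, overlapped no clone A2 peak at 4 h, and overlapped a clone A2 peak at 24 h. Of 39713 peaks in the first list, 28662 overlapped both a clone D7 DMSO peak and a CTCF peak, and these are called shared sites here. The members were thus chosen by presence or absence in these 5 peak lists, so their values in those lists are given as descriptions only. The members made up 9.97% of the shared sites and 7.20% of all clone A2 DMSO peaks. The same clone A2 lists sorted the other shared sites into 20200 kept at both times, 4007 absent at both times and 1597 present at 4 h but absent at 24 h, which is the reverse of the members' pattern. The members were 41.6% of the 6865 shared sites absent at 4 h, and 1.79 times as many as the reverse class. Their number was 1590 with only the upper 50% of CTCF peaks by fold and 1312 with the 6 RAD21 lists at equal length.

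All libraries came from hTERT RPE-1, retinal pigment epithelial cells of human origin immortalised with telomerase, and were made by chromatin immunoprecipitation sequencing (ChIP-seq). RAD21 was precipitated from clone A2 (mCherry-P2A-FKBP12(F36V)-NIPBL) and from clone D7 (mGreenLantern-P2A-FKBP12(F36V)-NIPBL), in each after DMSO for 24 h, dTAGV-1 for 4 h and dTAGV-1 for 24 h, from asynchronous cycling cells with about 10% mouse NIH/3T3 chromatin as spike-in. STAG1, STAG2 and PDS5A were precipitated from clone D7, HA from clone A2, and CTCF and WAPL from wild-type cells; PDS5A cells had DMSO for 24 h and the spike-in, and the labels give no treatment for STAG1, STAG2 or HA. Each group had 1 library and each degron line is 1 clone, so replicates cannot check any difference and no p-value is given. Both clones carried the degron tag also in DMSO, so the DMSO lists are not lists of untagged cells. The CTCF and WAPL cells had no tag, and for CTCF the DNA was size-selected and a different library kit was used. HA chromatin was fixed with DSG before formaldehyde and the other chromatin with formaldehyde alone. Peak lists hold no expression, so the identity of the cells could not be checked against marker genes.

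Cohesin is a ring-shaped complex that holds DNA loops. RAD21 is its kleisin subunit, which closes the ring, and STAG1 and STAG2 are alternative accessory subunits that also contact CTCF. NIPBL stimulates cohesin's ATPase and is needed for loop extrusion, PDS5A competes with NIPBL for the ring, and WAPL releases cohesin from chromatin. CTCF is a zinc-finger protein bound to an oriented motif at which extruding cohesin stops. The F36V degron is bound by dTAGV-1, which brings the tagged protein to the VHL ubiquitin ligase for destruction.

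The promoter sequences of 5 members are shown because the members lay at gene starts more often than shared sites as a whole, as described below. They come from the RefSeq promoter table of GRCh38.p14, and show the 250 bases before the gene start, read 5′ to 3′ on the gene's strand. Capitals mark core letters of the CTCF motif, written CCA, then NN (any base), AG, NN and GGC in 1 run of 12, searched on both strands of each 300-base window. KCNJ6, an inwardly rectifying potassium channel, was among the 6 promoter members with the highest clone D7 DMSO fold enrichment, none of which held the letters. The other 4 were chosen after the values were seen, as the members with the highest clone D7 DMSO fold whose window held the letters and whose peak had no 4 h peak within 1 kb. KIF1B encodes a kinesin motor, PIGC a subunit of the enzyme that begins glycosylphosphatidylinositol anchor synthesis, and MTCL1 a microtubule crosslinking factor.
KIF1B promoter, chr1:10210320-10210569, plus strand: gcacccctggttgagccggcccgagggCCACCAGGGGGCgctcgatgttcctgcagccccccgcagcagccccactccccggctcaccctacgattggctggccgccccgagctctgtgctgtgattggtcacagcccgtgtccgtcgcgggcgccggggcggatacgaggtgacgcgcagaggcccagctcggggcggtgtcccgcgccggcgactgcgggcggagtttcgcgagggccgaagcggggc
PIGC promoter, chr1:172444070-172444319, minus strand: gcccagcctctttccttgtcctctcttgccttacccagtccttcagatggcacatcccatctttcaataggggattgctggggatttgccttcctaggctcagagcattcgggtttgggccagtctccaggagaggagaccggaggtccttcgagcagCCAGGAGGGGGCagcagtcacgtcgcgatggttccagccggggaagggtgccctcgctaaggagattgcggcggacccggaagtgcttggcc
MTCL1 promoter, chr18:8707283-8707532, plus strand: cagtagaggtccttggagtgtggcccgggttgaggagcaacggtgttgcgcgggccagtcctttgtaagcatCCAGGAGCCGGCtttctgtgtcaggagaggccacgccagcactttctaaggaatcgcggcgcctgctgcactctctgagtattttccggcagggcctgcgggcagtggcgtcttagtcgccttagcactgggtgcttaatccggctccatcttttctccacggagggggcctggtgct
PLEKHA6 promoter, chr1:204359930-204360179, minus strand: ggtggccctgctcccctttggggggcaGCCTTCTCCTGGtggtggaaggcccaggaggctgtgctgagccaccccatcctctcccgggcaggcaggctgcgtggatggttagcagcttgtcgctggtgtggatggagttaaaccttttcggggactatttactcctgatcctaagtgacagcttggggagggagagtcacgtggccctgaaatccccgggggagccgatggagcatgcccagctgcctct
KCNJ6 promoter, chr21:37916458-37916707, minus strand: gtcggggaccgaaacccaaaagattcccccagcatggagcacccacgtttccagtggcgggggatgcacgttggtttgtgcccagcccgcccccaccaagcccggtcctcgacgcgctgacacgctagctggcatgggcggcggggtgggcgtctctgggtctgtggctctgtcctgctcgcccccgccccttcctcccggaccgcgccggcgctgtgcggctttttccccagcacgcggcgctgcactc
The letters read along the gene's strand in KIF1B, PIGC and MTCL1 and against it in PLEKHA6. Their centre lay 21 bp from the clone A2 DMSO RAD21 summit in KIF1B, 17 bp in PIGC, 144 bp in MTCL1 and 6 bp in PLEKHA6. Over all members, 912 promoter windows of 762 genes overlapped 623 member peaks, and 40 of these windows (4.39%, exact 95% interval 3.15 to 5.92) held the letters, against 2.41% of all 35116 windows. Windows at kept sites held them in 8.30% (7.09 to 9.65) and windows at sites absent at both times in 3.90% (2.96 to 5.03). The reverse class had the highest share, 15.9% (8.24 to 26.7) of its 69 windows. The members' windows had a median GC content of 69%, the kept sites' 65.7% and all windows 58.7%, and the part of base composition in these shares was not tested. A match is a description of the sequence and not a measured binding site.

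The libraries differed in depth. Read totals were not in the files, so depth is given as the lowest background pileup, the average number of overlapping fragments that the peak caller's fold and p imply. It was 1.87 in the clone A2 DMSO library, 3.16 at 4 h and 2.83 at 24 h. The clone D7 RAD21 libraries ranged from 3.00 to 4.05. STAG1 had 1.77 and STAG2 3.14, between which PDS5A had 2.76, and CTCF had 13.4. The clone A2 4 h library, in which the members were not called, had the highest background pileup of that clone's RAD21 libraries. This value is not a read count, and the part of depth in the absence at 4 h was not tested. The shortest RAD21 list was also the clone A2 4 h list, with 25763 peaks.

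The lists that chose the members are described here without a test. Of all shared sites, 76% had a clone A2 peak at 4 h and 80.4% at 24 h, whereas 0% and 100% of the members did by the rule. The members' peaks ranked low in the clone A2 lists and near the middle in the CTCF list. Their fold enrichment over background, the authors' value for each peak, had a median of 8.72 in the clone A2 DMSO list and ran from 2.57 to 43.5. The kept sites had a median of 26.6, the sites absent at both times 6.92 and the reverse class 14.8. When the shared sites were divided into 10 equal classes by this fold, 2114 members (74.0%) fell in the lowest 3 deciles and 13 in the highest 3. At 24 h the members' peaks had a median fold of 5.31, and the kept sites' 16.5. The members' median rank was at percentile 35.7 of the clone A2 DMSO list, 20.4 of the 24 h list, 41.6 of the clone D7 DMSO list and 53.2 of the CTCF list. The fold of the overlapping CTCF peak was 18.3 at the median for the members and 55.5 for the kept sites. The members' DMSO peaks were also narrower, with a median width of 549.5 bp against 776 bp, although 3.60% of them were wider than 2 kb against 1.30% of kept sites.

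**Figure D1:**
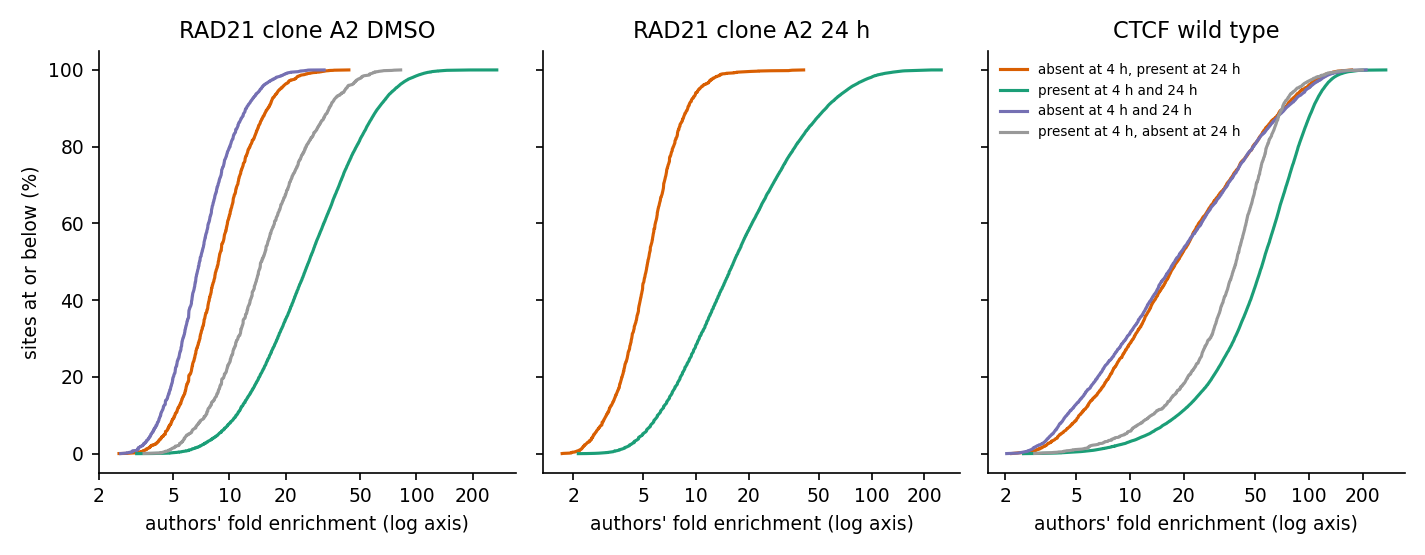
Cumulative share of sites (y axis, percent) at or below a given authors' fold enrichment (x axis, log scale) in the clone A2 DMSO, clone A2 24 h and CTCF lists, by class. The members (orange) lie left of the kept sites (green) in each panel, with medians of 8.72, 5.31 and 18.3 against 26.6, 16.5 and 55.5.

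Most members were clear of the rule's edges in distance, overlap and 24 h q. The 4 h signal at a member itself is not in the lists, so how far it fell below the calling limit was not measured. The median distance from a member to the nearest 4 h peak was 27076 bp, and 82 members lay within 1 kb of one. At 24 h, 2173 members (76.0%) had a −log10 q of at least 10, 156 (5.46%) had one under 5, and 6 overlapped their 24 h peak by under 100 bp. The 24 h summit lay within 100 bp of the DMSO summit in 85.5% of members (84.2 to 86.8) and outside the DMSO peak in 46. The members just inside the rule with the smallest 24 h overlap were at RALGPS1, PPP1CB and EML6, with 11, 61 and 77 bp. Of those nearest to a 4 h peak, one close to RNGTT lay at 192 bp and one in SLC25A26 at 222 bp. The kept sites just outside it, with the lowest fold at 4 h, were at STARD13, PIK3CB and BIN1, with 4 h folds of 2.34, 2.34 and 2.38 and −log10 q of 2.62, 2.62 and 2.65. Their 24 h folds were 7.53, 3.78 and 4.28, within the range of the members.

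Clone D7 was treated in the same way, and its treated lists were not used by the rule. The members were mostly still present in clone D7 at 4 h, when clone A2 had lost them from its list. The clone D7 4 h list was the longest RAD21 list after dTAGV-1, with 39059 peaks and the highest RAD21 background pileup, 4.05. The clone D7 24 h list had 30114 peaks and the clone A2 4 h list 25763. With the 6 RAD21 lists at equal length, which left 1312 members, the members' share in clone D7 was 82.0% at 4 h and 68.4% at 24 h. The part of depth in the shares was not tested. The values that follow use the full lists. A clone D7 4 h peak overlapped 2448 members, or 85.7% (84.3 to 86.9), against 89.2% of all shared sites. At 24 h it was 1984 members, or 69.4% (67.7 to 71.1), against 82.3%. In clone D7 the members thus had fewer peaks at 24 h than at 4 h, the opposite of the order that defines them in clone A2. The kept sites had a clone D7 peak in 96.9% at 4 h and 95.4% at 24 h, the sites absent at both times in 65.7% and 28.3%, and the reverse class in 56.7% and 75.1%.

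The members therefore lay between the kept sites and the sites absent at both times. At 24 h they exceeded the latter by 41.1 percentage points (38.9 to 43.3, Newcombe 95% interval for counting error) and were below the kept sites, with a difference of −26.0 points (−27.8 to −24.3). The classes differed in peak strength, so both differences were also taken at matched clone A2 DMSO fold. Strength in clone D7 was not matched. The median clone D7 DMSO fold was 7.73 for the members and 21.0 for the kept sites. It was 6.19 for the sites absent at both times and 6.83 for the reverse class, which in clone A2 DMSO was above the members. Within deciles of the clone A2 DMSO fold and weighted by the members in each, the first difference was 39.2 points, higher for the members in 6 of 6 deciles with at least 20 sites of each class. The second was −13.2 points, lower in 7 of 7 deciles, and smaller than the unweighted value by over 1.5 times. Against the reverse class at 24 h the sign depended on matching by clone A2 DMSO fold. The difference was −5.72 points (−8.40 to −2.98) unweighted and 10.1 points within deciles, higher in 5 of 7. At 4 h the difference from the kept sites was −11.2 points (−12.6 to −9.97), and −3.09 within deciles. At that time the members exceeded the sites absent at both times by 19.9 points (17.9 to 21.9) and the reverse class by 28.9 points (26.2 to 31.7).

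**Figure D2:**
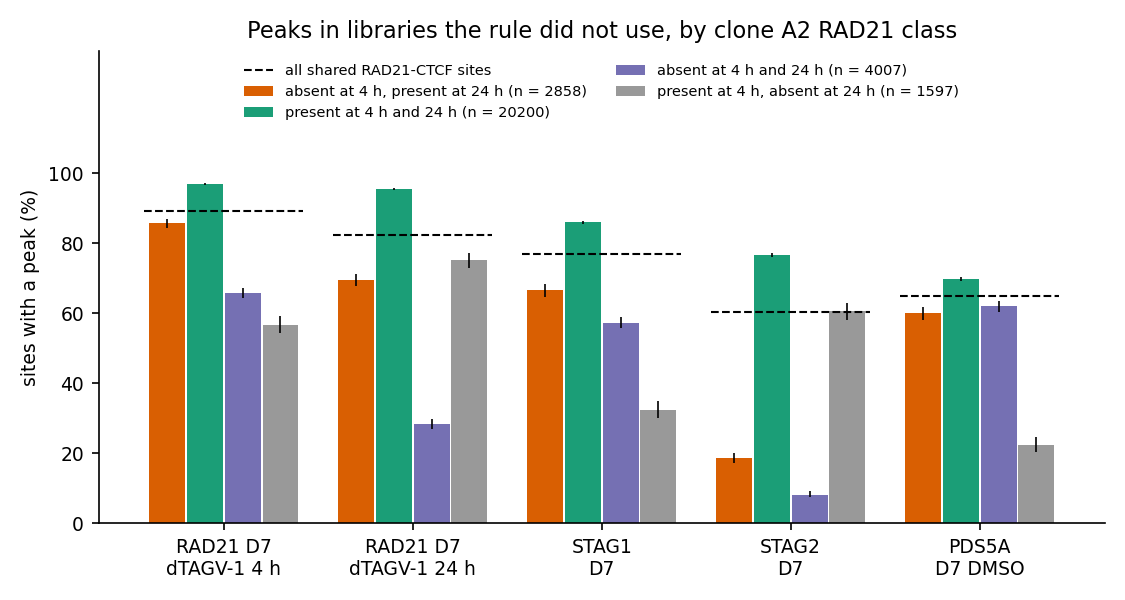
Share of sites (y axis, percent) with a peak in 5 libraries that the rule did not use, by clone A2 class, with exact 95% intervals for counting error as vertical lines and the share over all shared sites as dashed lines. The members (orange) are at 85.7% and 69.4% in the clone D7 RAD21 lists, 66.5% for STAG1, 18.6% for STAG2 and 59.97% for PDS5A.

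Few members repeated their own pattern in clone D7. Of the members, 162, or 5.67% (4.85 to 6.58), had no clone D7 peak at 4 h and one at 24 h, against 4.63% of all shared sites. The reverse, a clone D7 peak at 4 h and none at 24 h, was seen in 626 members (21.9%, 20.4 to 23.5), against 11.5%. Peaks at both times were found at 1822 members (63.8%), against 77.7%, and at neither time at 248 (8.68%), against 6.19%. The absence at 4 h with a later return was most frequent in clone D7 among the sites with the reverse history in clone A2, at 521 of 1597 sites (32.6%, 30.3 to 35.0). The kept sites had 2.21%, so that the members were 3.46 points higher (2.64 to 4.39), but the sign changed within deciles, to −0.997 points, with 4 deciles higher and 3 lower. The difference from the reverse class was −27.0 points (−29.4 to −24.5) and −19.5 within deciles, lower in 7 of 7.

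**Figure D3:**
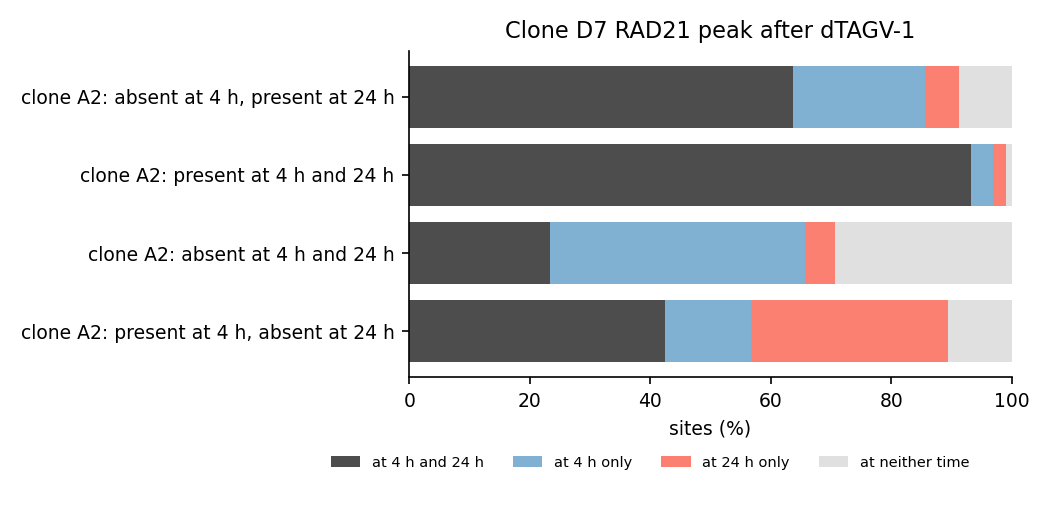
Stacked shares (x axis, percent of sites) of the 4 possible clone D7 RAD21 outcomes after dTAGV-1, 1 bar for each clone A2 class. Of the members (top bar), 63.8% had a clone D7 peak at both times, 21.9% at 4 h only, 5.67% at 24 h only and 8.68% at neither.

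The accessory subunits separated the members from both the kept sites and the reverse class. A STAG1 peak overlapped 1901 members, or 66.5% (64.8 to 68.2), against 77% of all shared sites. A STAG2 peak overlapped 533, or 18.6% (17.2 to 20.1), against 60.3%. STAG1 without STAG2 was found at 1506 members (52.7%), against 25.1% of shared sites, and STAG2 without STAG1 at 138 (4.83%), against 8.32%. Both subunits were listed at 395 members (13.8%), against 52%, and neither at 819 (28.7%), against 14.7%. Members with STAG1 alone were thus more frequent than members with any STAG2 peak. In the reverse class the order was turned, with STAG2 alone at 44.8% and STAG1 alone at 16.8%. In the kept class 69.6% had both. STAG1 without STAG2 did not set the members apart from the sites absent at both times, of which 52.7% had it, a difference of −0.0136 points (−2.41 to 2.38). That difference was 5.52 points (1.52 to 9.34) at gene starts and 0.970 (−1.85 to 3.79) away from them. The share with any STAG1 peak was 9.19 points (6.87 to 11.5) above that class. Within deciles of clone A2 DMSO fold it was 5.93 points above, higher in 6 of 6.

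The STAG2 share of the members was below that of the kept sites, with a difference of −57.9 points (−59.4 to −56.3), and below that of the reverse class, with −41.8 points (−44.6 to −39.0). It was higher than that of the sites absent at both times by 10.5 points (8.82 to 12.1). Within deciles of clone A2 DMSO fold these differences were −19.9, −18.2 and 7.17 points, with the same sign in 7 of 7, 7 of 7 and 6 of 6 deciles. The first 2 were smaller within deciles by more than 1.5 times. For STAG1 the sign depended on matching by clone A2 DMSO fold. The members were 19.4 points below the kept sites without weighting (−19.4, −21.2 to −17.7) and 12.3 points above them within deciles, higher in 7 of 7. Against the reverse class the STAG1 share was higher by 34.1 points (31.2 to 36.9) and by 34.9 points within deciles. In the third decile, for example, a STAG1 peak was listed at 68.5% of 625 members and 56.2% of 1364 kept sites, and a STAG2 peak at 18.1% and 39.7%. The STAG1 library had a lower background pileup than the STAG2 library, 1.77 against 3.14.

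**Figure D4:**
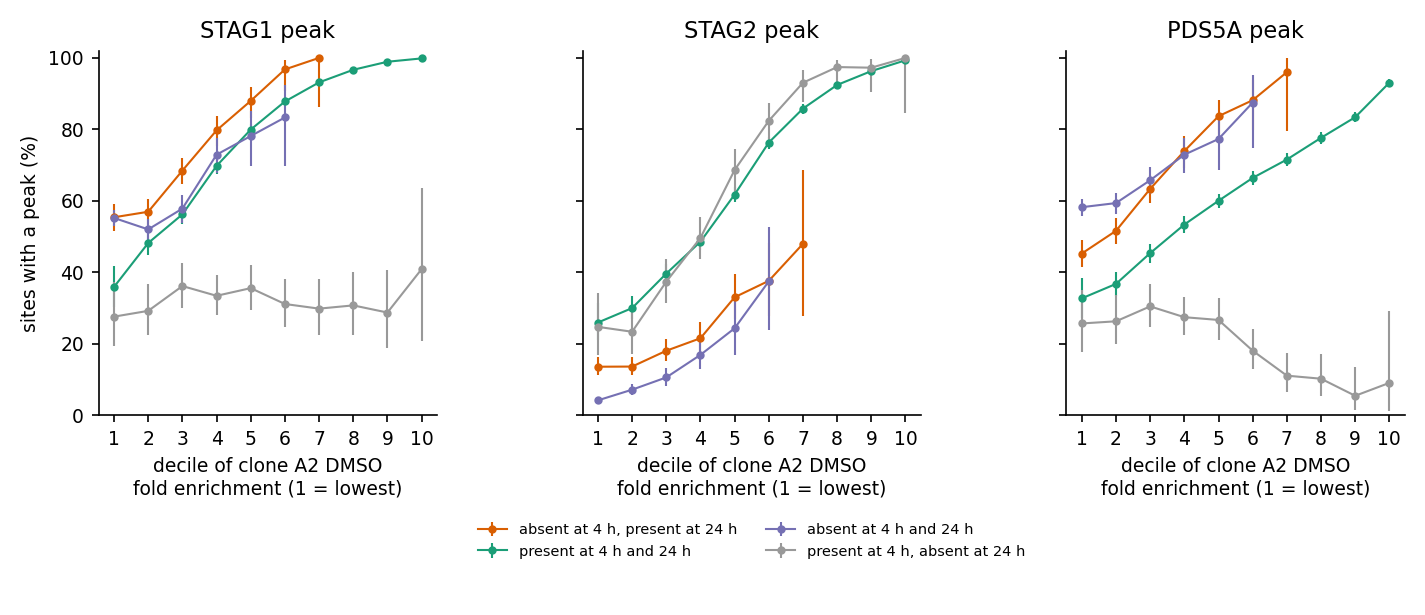
Share of sites with a STAG1, STAG2 or PDS5A peak (y axis, percent, with exact 95% intervals) in deciles of clone A2 DMSO fold enrichment (x axis), by class, where a class had at least 20 sites. Within a decile the members (orange) lie above the kept sites (green) for STAG1 and PDS5A and below them for STAG2 in all 7 deciles shown. Strength in clone D7, the source of these libraries, was not matched.

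PDS5A, WAPL and HA were listed at the members to very different extents. A PDS5A peak overlapped 1714 members, or 59.97% (58.1 to 61.8), against 65% of all shared sites. This was below the kept sites by 9.74 points without weighting (−9.74, −11.7 to −7.85) and above them by 16.7 points within deciles, higher in 7 of 7. With the 6 RAD21 lists at equal length it was 2.37 points. Against the sites absent at both times the difference was −1.99 points (−4.34 to 0.344), whose interval holds 0, and −5.27 within deciles, with 3 deciles higher and 3 lower. It was 6.49 points (2.73 to 10.1) at gene starts and −2.91 (−5.75 to −0.0780) away from them. Against the reverse class the members were higher by 37.6 points (34.8 to 40.2), and by 32.9 within deciles. WAPL, whose list held 2667 peaks, overlapped 9 members (0.315%, 0.144 to 0.597), against 9.15% of shared sites and 12.8% of kept sites. HA, with 230 peaks, overlapped 10 members (0.350%, 0.168 to 0.643), against 0.537%. Its difference from the kept sites was −0.333 points (−0.535 to −0.0221). The WAPL and HA shares were not compared within deciles, so the part of peak strength in them was not tested.

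Gene starts held a large share of the members. The promoter table gave starts for 15843 genes, fewer than the 19974 protein-coding genes used for gene bodies. Starts on other chromosomes than 8 were also missing. The member inside GADD45A, on chromosome 1, was 147965 bp from the nearest listed start. Some sites at gene starts may therefore be counted as away from them. Outside chromosome 8, which the promoter table does not cover, 634 of 2747 members, or 23.1% (21.5 to 24.7), had their summit within 1 kb of a protein-coding gene start, against 10.8% of shared sites. The kept sites had 5.76% (5.44 to 6.10), the sites absent at both times 30.2% (28.8 to 31.7) and the reverse class 3.61% (2.73 to 4.68). The 2 classes absent at 4 h were thus the ones rich in gene starts. Within deciles the members exceeded the kept sites by 14.7 points, higher in 7 of 7, and the reverse class by 17.7 points, higher in 7 of 7. Against the sites absent at both times the difference was −7.13 points (−9.25 to −4.97), −2.14 within deciles, with 3 deciles higher and 3 lower, and 0.433 with the RAD21 lists at equal length. Members also lay inside protein-coding genes in 57.6% (55.8 to 59.4), against 48.2% of shared sites and 43.2% of kept sites. The sites absent at both times had 63.9% and the reverse class 55.5%, from which the members differed by 2.11 points (−0.916 to 5.15).

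Whole libraries differed in the same feature. Of all summits in a list, 4.18% lay at a gene start for STAG2, 5.27% for clone A2 RAD21 at 4 h and 7.96% at 24 h. The share was 12.4% for clone A2 DMSO, 15.2% for clone D7 at 4 h, 17.2% for STAG1 and 19.9% for PDS5A. It was 3.93% for WAPL and 5.88% for HA. The clone A2 24 h list, which holds every member by the rule, was also below the DMSO list. The part of this library property in the members' shares was not tested. Among the 634 members at a gene start, 97.9% had a clone D7 4 h peak, 85.3% a clone D7 24 h peak, 91.2% STAG1, 84.9% PDS5A and 10.6% STAG2. All 2964 shared sites at gene starts had 91.9%, 70.8%, 87.8%, 85.4% and 26.4%. At gene starts the members were thus above all shared sites in clone D7 at 24 h, the opposite of the order over all sites. They were close to all shared sites for PDS5A and below them for STAG2. The 2964 sites included 1165 absent at both times, of which 37.2% had a clone D7 24 h peak. In clone D7 at 24 h the members at gene starts were still below the kept sites (−12.1 points, −15.1 to −9.28). They still exceeded the sites absent at both times (48.2 points, 44.1 to 51.9). Their difference from the reverse class was 5.33 points (−3.62 to 18.0) at gene starts and −5.72 over all sites. Among the 2113 members elsewhere, the shares were 82.0%, 64.5%, 59.1%, 52.8% and 21.2%. Away from gene starts the STAG2 share was still 56.1 points below the kept sites (−56.1), and within deciles the difference there was −19.3 points.

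**Figure D5:**
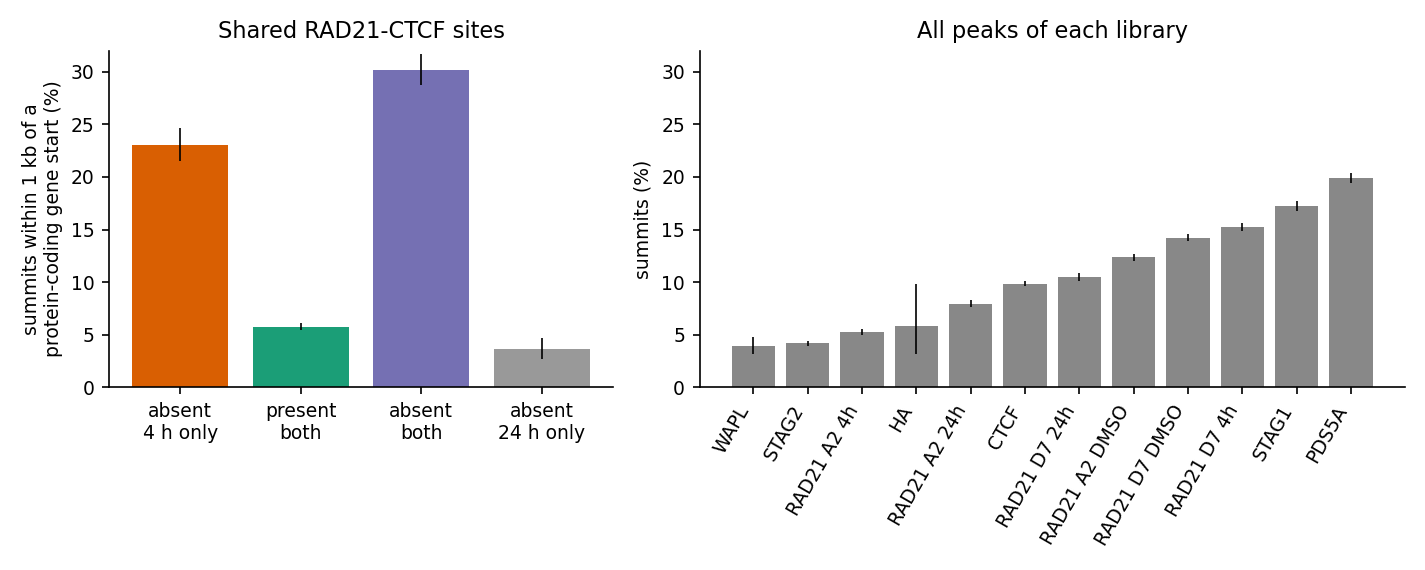
Left, share of summits within 1 kb of a protein-coding gene start (y axis, percent) for the 4 classes of shared sites outside chromosome 8, with exact 95% intervals. Right, the same share over all peaks of each library; the members stand at 23.1%, and the lists run from 3.93% for WAPL to 19.9% for PDS5A.

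The values of single members follow, with each fold set against its own list only. The 4 members with the highest clone A2 DMSO fold were a site 28895 bp from MOB2, a kinase-binding protein gene (chr11:1515324-1516069, 43.5), and sites inside EEF1G, a translation elongation factor gene (chr11:62560286-62561113, 40.5), IRGQ (chr19:43594436-43595342, 36.2) and ZFYVE27, which encodes protrudin (chr10:97759233-97759986, 35.9). Their nearest 4 h peaks were 30309, 17186, 74499 and 26822 bp away. At the MOB2 site the fold was 10.8 at 24 h in clone A2, 26.3 in clone D7 DMSO, 12.9 at 4 h and 16.0 at 24 h, with 109 for CTCF, 30.2 for STAG1 and 30.3 for PDS5A. The MOB2 site had no STAG2, WAPL or HA peak. The site in EEF1G had folds of 11.9 at 24 h in clone A2, 32.4, 11.3 and 11.03 in the clone D7 lists, 19.2 for STAG1, 20.8 for STAG2 and 28.0 for PDS5A. All 4 were present in every clone D7 RAD21 list and had CTCF folds between 80.3 and 137.

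The members with the highest 24 h fold were of another kind. They lay in MEPE, TANC2 and FRMPD4 and 16516 bp from ALPI, the intestinal alkaline phosphatase gene, with 24 h folds of 41.0, 39.7, 35.3 and 34.5. Their DMSO folds were 6.47, 6.27, 5.75 and 15.7. Each had another DMSO peak within 296 to 489 bp and a 4 h peak within 234 to 643 bp, and its 24 h summit lay outside the member itself. These 4 thus sit at the edge of the rule, beside other peaks. Over all members, 227 (7.94%) had another clone A2 DMSO peak within 1 kb.

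The members with the same pattern in clone D7 and the highest clone D7 24 h fold were in GALNT7, a glycosyltransferase gene, PTRHD1 and SFMBT1, and 54694 bp from ADAMTS15, a metalloprotease gene. At GALNT7 (chr4:173171156-173171492) the fold was 8.78 in clone A2 DMSO and 6.40 at 24 h, and 6.25 in clone D7 DMSO and 11.9 at 24 h, with no 4 h peak in either clone. At SFMBT1 (chr3:52934358-52935065) the clone A2 folds in DMSO and at 24 h were 17.1 and 9.41, and those of clone D7 were 13.6 and 11.2. None of these 4 sites had a STAG2 or PDS5A peak, and those at ADAMTS15 and PTRHD1 had a STAG1 peak.

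At promoters, the 6 members with the highest clone D7 DMSO fold were at FAT1, an atypical cadherin gene, TMEM51, KCNJ6, RFFL, a ubiquitin ligase gene, ASAP2 and YWHAG, which encodes a 14-3-3 protein. All 6 had a peak in clone D7 at 4 h and 24 h and peaks of STAG1 and PDS5A, and 2 of them, ASAP2 and YWHAG, had a STAG2 peak. At KCNJ6 (chr21:37916105-37916784) the clone A2 fold was 16.0 in DMSO and 9.26 at 24 h, and the nearest 4 h peak was 156540 bp away. The clone D7 folds there were 27.5 (DMSO), 26.9 (4 h) and 21.5 (24 h), with 11.1 for STAG1, 37.2 for PDS5A and 5.86 for WAPL. The peaks at FAT1 and TMEM51 lay 482 and 754 bp from a 4 h peak. At KIF1B (chr1:10209847-10211548), whose promoter is printed above, the clone A2 fold was 20.8 in DMSO and 2.95 at 24 h. The clone D7 folds were 15.1 (DMSO), 8.93 (4 h) and 7.43 (24 h), and the CTCF fold was 138. At PIGC, MTCL1 and PLEKHA6 the clone A2 fold was 12.1, 15.9 and 13.9 in DMSO and 5.96, 4.77 and 6.49 at 24 h, and none of the 4 sites with the letters had a STAG2 peak.

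WAPL and HA marked few members. The WAPL-overlapping members with the highest WAPL fold were in the uncharacterised LOC124902561, in DIDO1 and in RNF123, a ubiquitin ligase gene, with 7.22, 6.96 and 6.43. The HA-overlapping members with the highest HA fold were 838 bp from CITED2, a transcriptional co-regulator gene, in ABCC12 and 128308 bp from TOMM20, with 10.6, 8.41 and 7.27. The CITED2 peak was 4271 bp wide and overlapped its 24 h peak by 2276 bp.

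The longest row of members without another shared site between them held 7 sites over 351 kb of chromosome 7, chr7:54841775-55192873, and was singled out after the values were seen. It began 82998 bp from SEC61G, a translocon subunit gene, and ended inside EGFR, the epidermal growth factor receptor gene. EGFR had 5 members within 10 kb and no shared site of another class. The members there were weak, with clone A2 DMSO folds of 6.37 at the gene start and 5.36, 3.03, 7.82 and 4.33 in the gene body, and 24 h folds of 2.80, 4.47, 3.09, 4.98 and 3.66. Inside EGFR, the clone A2 lists held 8 RAD21 peaks in DMSO, 0 at 4 h and 5 at 24 h. The clone D7 lists held 6, 5 and 3. The nearest clone A2 4 h peak to any of these 5 members was 61836 bp away. STAG1 overlapped each of the 5, STAG2 only the second, and PDS5A only the one at the gene start. TENM4 also had 5 members within 10 kb, but together with 7 kept sites, and ME3 and PRKAG2 had 4 each.

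Gene lists chosen for this cell line and treatment were read against the 12.3% of 19974 protein-coding genes with a member within 10 kb. Of 20 YAP, TGF-beta and AP-1 target genes, 7 (35.0%, 15.4 to 59.2) had one: CCN1, FOSL2, AMOTL2, LATS2, AJUBA, THBS1 and SMAD7. Of 23 cell-cycle and p53 genes, 4 (17.4%, 4.95 to 38.8) had one: GADD45A, CDK6, CCND1 and BBC3. Of 16 imprinted loci with CTCF control 1 (6.25%, 0.158 to 30.2) had one, GRB10. None was found at 16 cohesin and regulator genes, 39 HOX genes or 16 retinal pigment epithelium genes, where the interval reached 20.6%, 9.03% and 20.6%. Apart from the HOX list and the YAP, TGF-beta and AP-1 list, the interval of every list held 12.3%. The HOX genes lie in clusters, so the interval counts neighbours as if they were independent. YAP, TGF-beta and AP-1 targets were also near kept sites in 15 of 20, against 47.2% of all genes, and near sites absent at both times in 8 of 20, against 20.3%. The reverse class was near 1 of 20, against 5.99%.

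Some of these members show the values behind the counts. CCN1, a matricellular YAP target, had 2 members, one outside it, 3610 bp away (chr1:85576124-85579081) and one inside the gene (chr1:85580455-85583211). The first had clone A2 folds of 17.3 in DMSO and 6.88 at 24 h, and clone D7 folds of 9.44, 5.20 and 4.12. The second had 15.3 and 7.16, and 20.2, 6.76 and 10.2. Both were strong for members and overlapped STAG1 and PDS5A but not STAG2. SMAD7, an inhibitor of TGF-beta signalling, also had 2 members outside the gene, with 8.70 and 10.0 in clone A2 DMSO and 8.05 and 2.56 at 24 h. At LATS2, a Hippo pathway kinase, the member lay 380 bp from the gene start, with 5.13 in clone A2 DMSO and 2.52 at 24 h. None of the 9 members at these 7 genes had a STAG2 peak. The 2 members in CDK6, a cyclin-dependent kinase, differed from them in having STAG2 peaks (folds 4.35 and 7.003). Neither had a STAG1 peak, which was also missing at the SMAD7 member with the DMSO fold of 8.70.

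The members were spread over the genome, with a small excess beside each other. Their share of shared sites ran from 8.11% (5.09 to 12.1) on chromosome 21 to 14.8% (11.9 to 18.1) on chromosome 22, where 78 of 527 sites were members. The chromosome 22 interval lay above their share of all shared sites, 9.97%. Of the members' neighbouring shared sites, 68.1% were kept at both times and 12.0% were members, against 9.64% members among the neighbours of kept sites. Runs of 2 or more consecutive members held 639 of them (22.4%), and the share expected from independent placing was not computed.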

How the data were processed

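The deposited files were 12 narrowPeak lists, 1 for each immunoprecipitation, from 22 labelled samples; the 10 inputs had no list. The submitters' processing notes name BWA, Picard, SAMtools, bedtools, deepTools and MACS2 and the builds hg38 and mm10, with no versions. The role and settings of each tool are not given in the sources used here. The authors deposited for each peak a score, a fold enrichment (a ratio to background) and −log10 p and −log10 q values, and each was used only within its own list. The peak names carry the word DMSO for STAG1 and STAG2 and HA-NIPBL for HA, and the labels do not give these.

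A site counted as present in a list when a peak there shared 1 bp or more with it. Shares carry exact (Clopper-Pearson) and differences of shares Newcombe 95% intervals, which cover counting error only. Peaks of a list are not replicates, and no p-value was computed. Fold and −log10 p up to 250 were solved for pileup and background under a Poisson model, which gave whole pileups in 11 of the 12 lists. Gene starts and promoter windows (250 bases before to 50 after a start) come from a RefSeq table of GRCh38.p14 without chromosome 8. Starts of 15843 genes were used, against 19974 protein-coding genes for gene bodies. Python 3.11.15, numpy 2.4.6, pandas 2.3.3, scipy 1.17.1 and matplotlib 3.10.9 were used, and the scripts were tested on simulated lists. The spike-in was not used, and no column of another sample was present.

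The sites named are those with the highest fold in the clone A2 DMSO list (4) or at 24 h (4), those with the same pattern in clone D7 (4), at a promoter (6), with WAPL or HA (3 each), and 3 at each edge of the rule, of which 1 is not reported here. The members and lists were chosen with earlier results of these data known. The gene start share, the STAG2 differences, the 4 promoters with the CTCF letters and the EGFR locus were added after the values were seen.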

Additional observations from a re-analysis of the deposited data

How the results depend on the processing

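The number of members, their 6 shares and 4 differences from other classes were recomputed with 1 choice changed. Of 91 such values, 49 stayed within the main value's counting interval or, for the number, within 1.5 times. Only the 36 values that are differences could change direction, and 0 of them did. The 42 values that moved follow, and the cause of each move was not tested unless the setting itself gives it. The number of members was 1590 with the upper 50% of CTCF peaks and 1312 with the 6 RAD21 lists at the length of the shortest.

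With summits within 200 bp in place of overlap, the members' share was 82.3% in clone D7 at 4 h, 66.0% at 24 h, 61.9% for STAG1, 54.0% for PDS5A and 17.6% at gene starts. At a −log10 q of at least 10 these shares were 83.5%, 65.8%, 64.7%, 56.4% and 19.6%. With the upper 50% of CTCF peaks, the share was 87.7% in clone D7 at 4 h, 70.7% for STAG1, 67.3% for PDS5A and 19.8% at gene starts. With lists of equal length it was 82.0% in clone D7 at 4 h, 81.5% for STAG1, 23.7% for STAG2, 76.7% for PDS5A and 20.7% at gene starts. With sites over 1 kb from a gene start alone, chosen after seeing the data, it was 82.0% and 64.5% in clone D7 at 4 h and 24 h. STAG1 was then at 59.1%, STAG2 at 21.2% and PDS5A at 52.8%.

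The difference from the kept sites in clone D7 at 24 h was −29.2 points by summits, −29.6 at the stricter q, −28.4 with the upper CTCF peaks, −27.9 at equal length, −30.8 away from gene starts and −13.2 within deciles. From the sites absent at both times it was 44.2 at the stricter q. The STAG2 difference from the kept sites was −60.0 with the upper CTCF peaks, −56.1 at equal length, −56.1 away from gene starts and −19.9 within deciles. From the reverse class it was −45.6 by summits, −46.8 at the stricter q, −37.9 with no 4 h peak within 1 kb, −46.0 with the upper CTCF peaks and −18.2 within deciles.

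The other 20 differences between the members and a class were added after the values were seen. Of their 177 values, 100 stayed within the interval, 71 moved without a called difference changing sign and 6 changed sign. Within deciles, the difference from the kept sites became 12.3 points for STAG1, 16.7 for PDS5A and −0.997 for the members' pattern in clone D7, and that from the reverse class in clone D7 at 24 h became 10.1. At equal length, PDS5A against the kept sites became 2.37, and gene starts against the sites absent at both times 0.433.

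No paired analysis was possible because each group held 1 library, and there was no replicate to leave out. Depth limits the absence calls: a site missing from a list was not called at that library's depth, and weaker occupancy there cannot be told apart from none. The clone, its reporter and its library cannot be told apart in any difference between clones A2 and D7.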
